A study of Mus musculus with 11 samples.

Results

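Genes for enzymes that methylate DNA, for Polycomb proteins and for enzymes that modify or move histones were compared between CD34+ and CD34- keratinocyte fractions of transgenic mouse back skin. The members were 43 named genes in 7 roles, each matched by the single gene symbol that the array's annotation gives a probe set. Where a gene had several probe sets, the one brightest in the mean of the 11 arrays stood for it. This found 42 of the 43 genes, among 18193 genes with such a probe set, and Suv39h1 was not analysed here. The dimmest 40% of genes were not tested, which left 39 members among 10916 tested genes and set aside Phc1, Cbx3 and Hdac9.

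The CD34+ group had 5 arrays and the CD34- group 6 arrays, all from K5-myrAkt(L84) mice. The line carries a membrane-targeted, active form of the kinase Akt under the keratin 5 promoter, so the transgene acts in keratin 5 cells and is present in both groups. No skin without the transgene was analysed here, so no difference below measures an effect of Akt. Keratinocytes were bound by an antibody against CD34, a surface marker of the hair follicle bulge, and parted with magnetic beads. The cell type label of both groups names hair follicle stem cells, whereas the design text uses that name for the CD34+ cells alone. Neither age, hair cycle stage, batch nor pooling of mice is stated in the labels. Nor is it stated that each array had its own mouse, so the p-values reflect only the spread between samples, which may be technical. With bulk RNA, fewer cells of a type and less RNA per cell cannot be told apart.

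Methylation of cytosine in DNA is set by de novo methyltransferases, copied after replication by a maintenance enzyme and its partner, and removed through oxidation by TET enzymes. Polycomb proteins work in 2 complexes: PRC2 methylates a lysine of histone H3, and PRC1 reads that mark and ubiquitinates histone H2A. In mouse epidermis these systems are known to hold differentiation genes and the Ink4 cell cycle inhibitors silent in progenitors, and demethylases and acetyl group writers and erasers act against or beside them.

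The sort and the RNA were examined first. Of 11 follicle bulge genes, 10 were higher in CD34+ arrays, where 12.4% of all tested genes were higher. The list was chosen with earlier results of these data known, so this count is not an independent check of the sort. It includes the sorted marker Cd34, whose log2 signal was 11.83 ± 1.17 on CD34+ arrays against 4.20 ± 1.57 on CD34- arrays (SD, n = 5 and 6). Cd34 and Lhx2 had CD34- means below the brightness filter of 6.59, so they passed it through the CD34+ arrays alone. The sizes of their differences are therefore not reliable. Other cell types differed too: all 5 tested T cell markers were lower in CD34+ arrays and all 3 tested fibroblast markers were higher. Of 11 antigen presenting and myeloid markers, 6 were higher and 1 lower. Pdgfra (CD34- mean 6.54) and C1qb (CD34- mean 6.39) passed the filter through the CD34+ arrays alone. Cd7 (CD34+ mean 5.10) passed it through the CD34- arrays alone, so the calls of these genes are not reliable. The remaining fibroblast genes were too dim to test. The summed T cell signal (9 genes, log2 of the linear sum) was 9.04 to 10.82 on CD34+ arrays and 11.62 to 12.36 on CD34- arrays. For 7 fibroblast genes the sum was 11.63 to 13.09 on CD34+ arrays and 9.03 to 9.84 on CD34- arrays. The antigen presenting and myeloid sum over 14 genes was 12.70 to 14.07 on CD34+ arrays and 12.46 to 13.21 on CD34- arrays. Endothelial genes were all too dim to test. Of 7 melanocyte genes Mitf was higher (1.42) and Kit lower (-1.33), and their summed signal overlapped, at 12.94 to 13.77 on CD34+ arrays and 12.40 to 14.70 on CD34- arrays. CD34- arrays 1 and 2 stood apart there: the median melanocyte gene lay 1.29 and 1.25 above its CD34- mean on them, and between -0.41 and -0.81 from it on the other CD34- arrays. Keratinocyte layer markers moved too, with Krt10 (0.36), Lor (1.02) and Sbsn (0.60) higher and Krt1 (-0.82) lower among 6 suprabasal genes, and Trp63 (-0.38) and Itga6 (-0.53) lower among 6 basal genes. MAS5 gives no true zero, so no marker can be called absent. The ratio of the 3-prime to the 5-prime actin control, which grows as labelled copies become shorter, was 5.25, 4.56, 3.97, 2.91 and 3.06 (log2) on CD34+ arrays 1 to 5 and 2.19 to 2.76 on CD34- arrays. It did not overlap between the groups, and CD34+ arrays 1 and 2 were the highest. The same ratio of the Gapdh control was 3.37, 3.62, 3.69, 2.96 and 2.99 on CD34+ arrays 1 to 5 and 3.00 to 3.43 on CD34- arrays, so it overlapped, and CD34+ array 3 was the highest. The part of cell makeup and RNA length in the differences below was not tested, apart from the fits with either ratio or without CD34+ arrays.

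Most chromatin enzyme genes could not be told apart between the fractions, and the few that could were spread over 6 of the 7 roles. Of the 39 tested members, 2 were higher in CD34+ arrays (Tet2 and Phc2) and 5 were lower (Uhrf1, Ezh2, Ehmt2, Kdm6a and Smarca2), at an adjusted p under 0.05 with limma. That is 17.9% of the members, against 24.7% of all tested genes (12.4% higher and 12.3% lower). The median log2 difference was 0.02 over the members and -0.00 over all tested genes, and the median absolute difference was 0.21 over the members and 0.32 over all genes. The CD34+ and CD34- arrays did not overlap for 6 tested members, and they did not overlap for 15.0% of all tested genes. Of the 32 members that were not called, 18 had a difference above 0 and 14 below it, between -0.53 and 0.61. The 95% interval of the difference lay within 1 log2 unit of 0 for 28 of these 32. At an unadjusted p under 0.05, 2 members were higher and 8 lower, where 2108 of all 10916 genes were higher and 2186 lower (39.3% in either direction). Without CD34+ array 1, 3 members were higher and 5 lower, against 11.0% and 11.7% of all genes. Without CD34+ arrays 1 and 2, 1 was higher (Tet2) and 3 were lower (Uhrf1, Ezh2 and Ehmt2), against 8.14% and 8.31% of all genes. With the actin ratio as a covariate no member was called by limma, and 126 of all tested genes were called. In that fit 3 members were higher and 4 lower at an unadjusted p under 0.05, against 7.20% and 6.17% of all genes. With the Gapdh ratio as a covariate, an alternative chosen after seeing the data, 1 member was higher (Tet2) and 4 were lower (Uhrf1, Ezh2, Ehmt2 and Kdm6a), against 9.01% and 8.94% of all genes. With array medians made equal, the median of all genes shifted by -0.48. No member was then called higher by limma (0, also at an unadjusted p under 0.05) and 19 were called lower, where 3.63% of all genes were called higher and 47.7% lower.

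**Figure D1:**
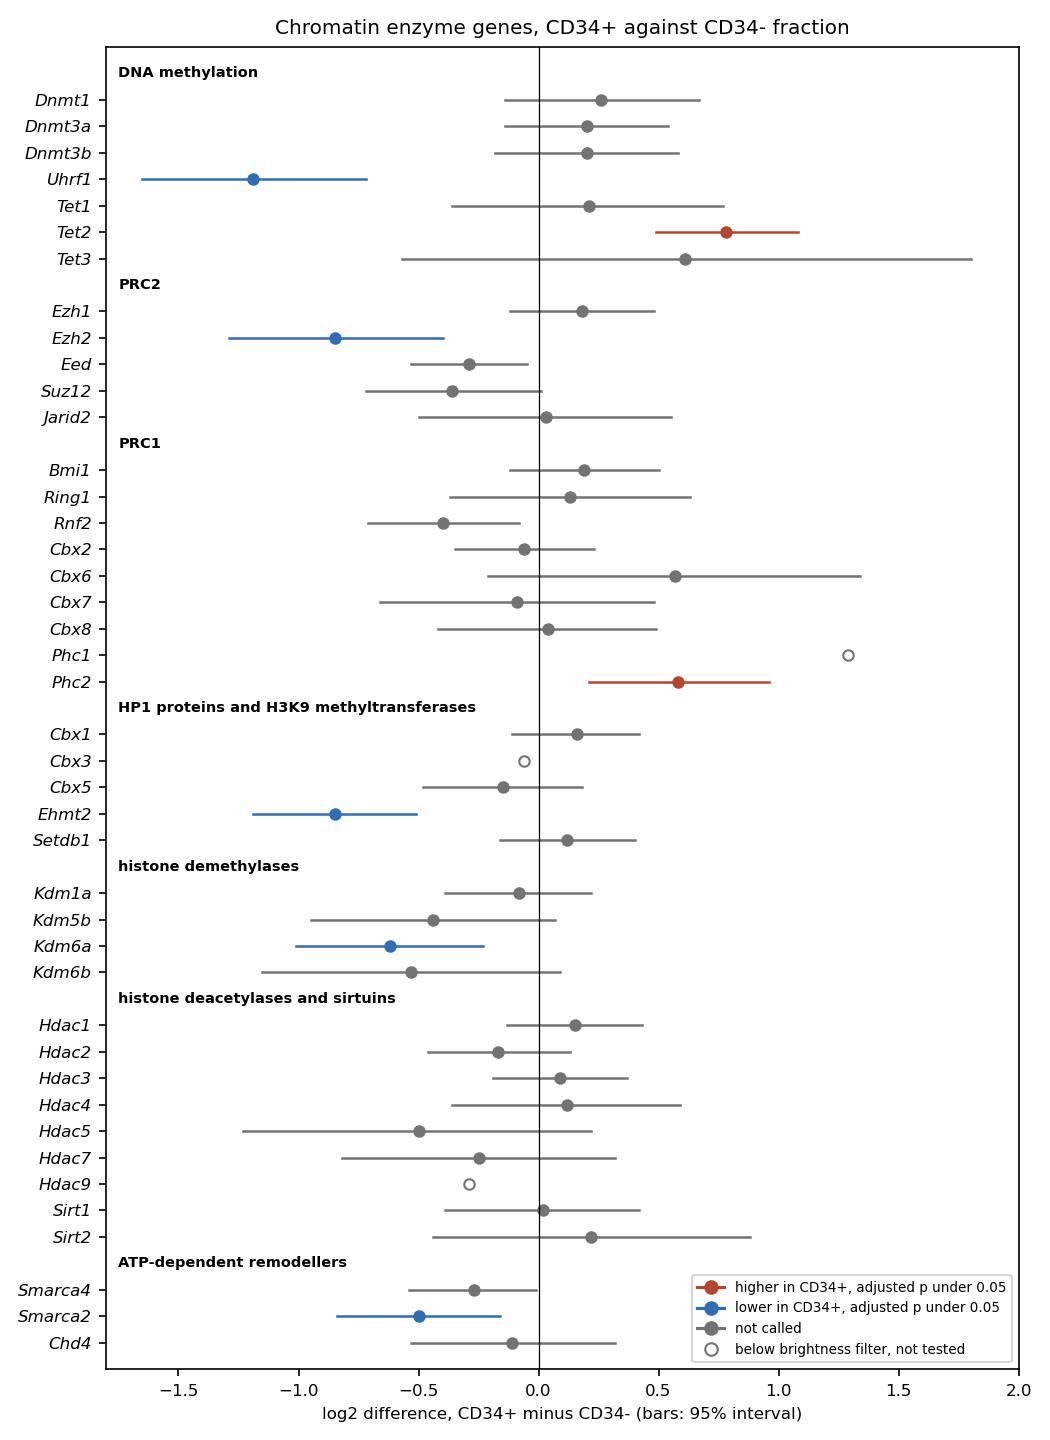
Log2 difference (CD34+ minus CD34-) of the 42 member genes on the horizontal axis, ordered by role, with bars for the 95% interval of the limma fit. Red points are the 2 members called higher in CD34+ arrays, blue points the 5 called lower, grey points the 32 not called, and open points the 3 below the brightness filter for genes; Uhrf1 lies farthest below 0 among the tested members and Tet2 farthest above.

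The promoters of 3 genes are shown because the results on DNA methylation and PRC2 turn on them: Uhrf1 and Ezh2, lower in CD34+ arrays, and Tet2, higher. Each is the 250 bases before an annotated start in RefSeq, build GRCm38.p6, read 5′ to 3′ on the strand of the gene. Uhrf1 lies at chr17:56304063-56304312 on the plus strand, Ezh2 at chr6:47595031-47595280 on the minus strand and Tet2 at chr3:133544391-133544640 on the minus strand. Capitals mark E2F motifs (TTTCGCGC, TTTGGCGC or TTTCCCGC) and the CCAAT box, each searched on both strands; E2F factors are known to drive S phase genes, and the CCAAT box is bound by NF-Y.
Uhrf1: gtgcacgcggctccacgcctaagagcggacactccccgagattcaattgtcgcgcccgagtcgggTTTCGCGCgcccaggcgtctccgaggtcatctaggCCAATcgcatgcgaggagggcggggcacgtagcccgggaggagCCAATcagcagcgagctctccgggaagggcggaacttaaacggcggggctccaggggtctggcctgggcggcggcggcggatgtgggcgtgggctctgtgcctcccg
Ezh2: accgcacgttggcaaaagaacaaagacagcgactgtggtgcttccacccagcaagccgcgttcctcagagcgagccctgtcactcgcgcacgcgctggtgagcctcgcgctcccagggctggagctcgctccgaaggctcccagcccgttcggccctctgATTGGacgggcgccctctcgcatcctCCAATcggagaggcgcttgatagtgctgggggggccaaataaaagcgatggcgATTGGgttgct
Tet2: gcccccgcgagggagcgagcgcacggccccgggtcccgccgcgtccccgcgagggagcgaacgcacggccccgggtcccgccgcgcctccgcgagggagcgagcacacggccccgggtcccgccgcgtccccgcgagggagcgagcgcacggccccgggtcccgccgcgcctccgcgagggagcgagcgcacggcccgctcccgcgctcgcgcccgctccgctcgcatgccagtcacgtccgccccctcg
The Uhrf1 promoter held an E2F motif whose first base is 185 bases before the start and CCAAT boxes at 150 and 107 bases before it. A promoter at another annotated start of Uhrf1 held no E2F motif and 1 CCAAT box. The Ezh2 promoter held 3 CCAAT boxes, at 90, 64 and 11 bases before the start, and no E2F motif in these letters. The Tet2 promoter held neither motif, and had 51 CpG dinucleotides, against 30 in the Uhrf1 promoter shown and 23 in that of Ezh2. The median was 21 CpG over 56 promoters of 39 members and 6 over all 32841 promoters, some of which overlap. An E2F motif was present in 1.53% of all promoters. At gene level it was in 4 of 39 members with an entry (Cbx3, Dnmt1, Suz12 and Uhrf1) against 1.78% of 27018 genes. These 39 are not the 39 tested members, as they include Suv39h1 and the dim members. Uhrf1 was called, Dnmt1 and Suz12 were not called in their brightest sets, and Cbx3 was too dim to test. Each E2F motif holds a CpG, of which member promoters had more, so the shares are not like for like. A CCAAT box was present in 33.9% of all promoters, and in 17 of 39 members against 37.5% of genes. These matches are descriptions of letters in a window and not of bound sites. Hdac1, Cbx2, Hdac3 and Kdm6b had no entry.

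Among the genes of DNA methylation, Uhrf1 was lower and Tet2 higher in CD34+ arrays. The methyltransferases were not called in their brightest probe sets, but dimmer sets of Dnmt1 (-0.80, limma adjusted p = 0.00834) and Dnmt3a (-0.55, limma adjusted p = 0.0295) were lower. Further sets of Dnmt1 (0.03, limma adjusted p = 0.937) and Dnmt3a (-0.25 and -0.06) passed the filter and were not called. Uhrf1 (gene span chr17:56303337-56323486, GRCm38.p6) encodes the protein that finds hemimethylated DNA behind the replication fork and brings the maintenance methyltransferase to it. Its log2 signal was 7.47, 8.20, 7.78, 8.34 and 7.65 on CD34+ arrays 1 to 5, and on the CD34- arrays the lowest was 8.49, the median 9.16 and the highest 9.42. All CD34+ arrays lay below all CD34- arrays. The difference was -1.19 (SE 0.22, limma adjusted p = 0.00219), a signal 2.28-fold lower in CD34+ arrays. It lay between -1.30 and -1.08 when each array was left out in turn. With the actin ratio as a covariate it was -0.97 (SE 0.34, limma adjusted p = 0.225) and not called. With equal medians Uhrf1 was called lower, as were 47.7% of all tested genes.

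Tet2 (chr3:133463677-133545136), which oxidises methylated cytosine, showed the opposite direction. It had log2 signals of 10.60, 10.26, 10.06, 10.45 and 10.52 on CD34+ arrays 1 to 5, against a lowest value of 9.43, a median of 9.54 and a highest value of 9.89 on CD34- arrays. Every CD34+ array lay above every CD34- array, and the array with the highest actin ratio was also the highest for Tet2. The difference was 0.78 (SE 0.14, limma adjusted p = 0.0018), 1.72-fold, and 0.73 to 0.86 when each array was left out. With the actin covariate it was 0.74 (SE 0.22, limma adjusted p = 0.141) and not called, and with equal medians it was 0.30 and not called. A dimmer probe set of Tet2 differed by 0.01 (SE 0.19, limma adjusted p = 0.97), so the higher signal was seen by 1 of the gene's 2 probe sets that passed the filter.

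The other members of this role were not called in their brightest sets. Dnmt1, the maintenance methyltransferase, differed by 0.26 (SE 0.19) in its brightest probe set, of a type whose probes can also bind other transcripts, which had 11.65, 11.80, 12.33, 11.38 and 11.29 on CD34+ arrays 1 to 5 and 11.08 to 11.86 on CD34- arrays. Dnmt3a and Dnmt3b, which set methylation de novo, both differed by 0.20 (SE 0.16 for Dnmt3a and 0.18 for Dnmt3b). Tet1 differed by 0.21 (SE 0.27), and was called higher when the probe sets of each gene were averaged (0.79, limma adjusted p = 0.026). That mean takes in a set too dim to test, with a difference of 2.55 and a CD34- mean of 3.95. Its other sets that passed the filter differed by 0.28 and 0.13 and were not called, so the averaged call is not reliable. Tet3 was the least precise of the tested members, with 6.69 to 8.49 on CD34+ arrays, 5.20 to 8.66 on CD34- arrays, and a difference of 0.61 (SE 0.55). These groups overlapped for all 5 genes.

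**Figure D2:**
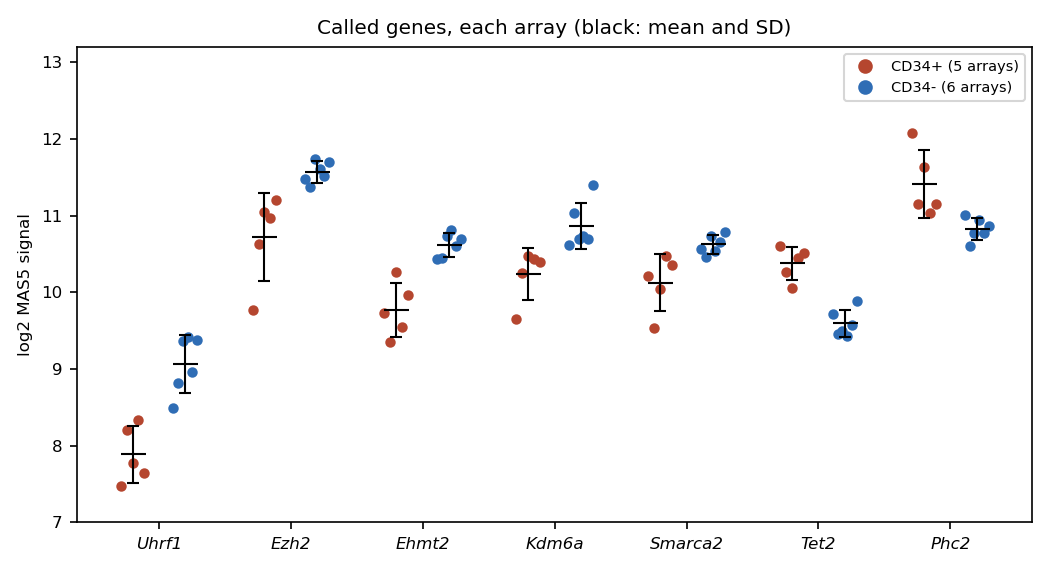
Log2 signal (vertical axis) of the 7 called member genes on each array, with CD34+ arrays (red) left of CD34- arrays (blue) for each gene and black bars for the mean and SD of each group. The points of Uhrf1, Ezh2, Ehmt2 and Kdm6a are lower in CD34+ arrays without overlap, those of Tet2 and Phc2 are higher without overlap, and those of Smarca2 overlap.

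In PRC2, the catalytic subunit Ezh2 (chr6:47530274-47595270) was lower in CD34+ arrays and the alternative catalytic subunit Ezh1 was not called. Ezh2 had log2 signals of 9.77, 10.63, 11.05, 10.97 and 11.21 on CD34+ arrays 1 to 5, and a lowest value of 11.37, a median of 11.56 and a highest value of 11.74 on CD34- arrays. The groups did not overlap, and array 1, with the highest actin ratio, was the lowest of all. The difference was -0.85 (SE 0.21, limma adjusted p = 0.0116), 1.8-fold lower. Without array 1 it was -0.61, without arrays 1 and 2 it was -0.49 (limma adjusted p = 0.0129), with the actin covariate it was -0.11 (SE 0.23, limma adjusted p = 0.872) and with the Gapdh covariate -0.79 (SE 0.22, limma adjusted p = 0.0296). The gene had 1 probe set, so no second one could be compared.

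Ezh1, the catalytic subunit known from cells that divide little, had 10.72, 11.22, 11.34, 11.41 and 11.29 on CD34+ arrays 1 to 5, and a lowest value of 10.86, a median of 10.99 and a highest value of 11.20 on CD34- arrays. Apart from array 1, which was the lowest of all, the CD34+ arrays lay above the CD34- arrays. The difference was 0.18 (SE 0.14, limma adjusted p = 0.353). Eed, the subunit that binds the PRC2 mark, had 11.08, 11.18, 11.34, 11.46 and 11.38 on CD34+ arrays, and 11.40 lowest, 11.56 median and 11.76 highest on CD34- arrays. Its difference of -0.29 (SE 0.11, limma adjusted p = 0.0727) was called only by the exact rank-sum test (adjusted p = 0.0431) and with equal medians among the settings run. Suz12, which holds the complex together, differed by -0.36 (SE 0.17, limma adjusted p = 0.142), with 10.43 to 11.49 on CD34+ arrays and 11.21 to 11.62 on CD34- arrays. Jarid2, which helps PRC2 find its targets, differed by 0.03 (SE 0.25). CD34+ array 1 had 10.92 for Jarid2 and the other CD34+ arrays 12.13 to 12.61, and without that array the gene was called higher (0.34, limma adjusted p = 0.0455). That array was singled out by its value, so this call is no test of the gene. With all arrays, other probe sets of Jarid2 differed by -0.21 (SE 0.16, limma adjusted p = 0.364) and -0.99 (SE 0.31, limma adjusted p = 0.038).

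The ratio of Ezh1 to Ezh2 within each array was compared, since both genes were measured on the same RNA. The log2 ratio was 0.94, 0.60, 0.29, 0.44 and 0.09 on CD34+ arrays 1 to 5, and -0.87 lowest, -0.59 median and -0.18 highest on CD34- arrays. The groups did not overlap, and the ratio was widest on arrays 1 and 2. Its mean was 0.47 ± 0.32 on CD34+ arrays against -0.56 ± 0.25 on CD34- arrays (SD, n = 5 and 6). The difference was 1.03, and 0.91 to 1.13 over leaving out each array, where the smallest possible p was larger still. The exact two-sided permutation p was 0.00433, the smallest that the 462 arrangements allow, and 0.0736 after adjustment over 17 pairs. The probe sets differ in brightness per transcript, so the sign of a ratio does not say which of the genes is more abundant. A single pair at this smallest p cannot go below 0.0736, so the adjusted test could not call 1 pair alone. Of the 17 pairs of related members, 14 had both genes tested, and no adjusted p was under 0.05. By the exact permutation test Tet2 to Tet1 had an unadjusted p of 0.0476 (adjusted 0.276), with a mean log2 ratio of 1.63 ± 0.52 on CD34+ arrays against 1.06 ± 0.30 on CD34- arrays (SD, n = 5 and 6). Its direction depended on the probe set rule: the difference was 0.58 with the brightest sets and -0.40 with the mean of probe sets. That mean takes in a Tet1 set too dim to test. The ratio of Dnmt3a to Dnmt3b averaged 1.34 in both groups, but its SD was 0.71 on CD34+ arrays and 0.10 on CD34- arrays, with array 1 at 2.58.

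**Figure D3:**
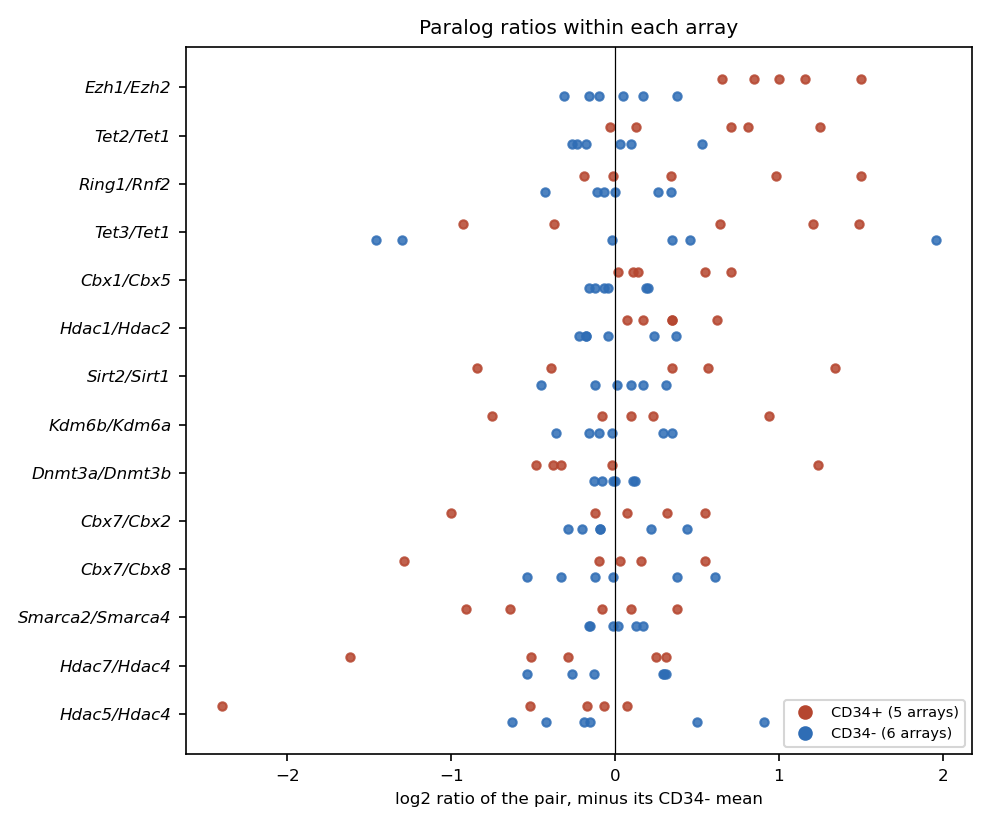
Log2 ratio of each pair of related genes within an array, minus the mean of the CD34- arrays for that pair (horizontal axis), for the 14 pairs with both genes tested; red points are the 5 CD34+ arrays and blue points the 6 CD34- arrays. The groups are apart for Ezh1 to Ezh2 and overlap for the other 13 pairs.

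PRC1 genes were mostly not called. Phc2 (chr4:128654655-128752881), a Polyhomeotic protein that joins PRC1 units into larger assemblies, was higher in CD34+ arrays. It had 12.08, 11.15, 11.64, 11.04 and 11.15 on CD34+ arrays 1 to 5, and 10.61 lowest, 10.82 median and 11.01 highest on CD34- arrays. The groups did not overlap, but the gap between the lowest CD34+ array and the highest CD34- array was small. The difference was 0.58 (SE 0.18, limma adjusted p = 0.0278), 1.5-fold. Leaving out CD34+ array 3 ended the call (limma adjusted p = 0.0539), as did leaving out CD34- array 2 (0.0581) or 3 (0.0541). The difference was 0.09 (SE 0.22, limma adjusted p = 0.899) with the actin covariate, 0.53 with the Gapdh covariate (limma adjusted p = 0.063) and 0.10 with equal medians. Its other probe set differed by -0.13 (SE 0.19, limma adjusted p = 0.649). The brightest set is of the same type as that of Dnmt1.

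Phc1, a second Polyhomeotic gene, lay below the brightness filter for genes. It had 6.72, 7.50, 6.75, 6.90 and 6.79 on CD34+ arrays 1 to 5, and 4.08 lowest, 5.94 median and 6.20 highest on CD34- arrays. All CD34+ arrays lay above all CD34- arrays, by 1.29 in the mean, and it was called higher when no brightness filter was used. In the fit of single probe sets the filter lay lower, at 6.06. The mean of Phc1 on CD34- arrays was 5.64, so it passed that filter through the CD34+ arrays alone. Its adjusted p from limma there, 0.0315, and the size of its difference are therefore not reliable. Rnf2, the ubiquitin ligase of PRC1, had the lowest adjusted p among uncalled members, at 0.0635. It had 11.03, 10.99, 11.30, 11.41 and 11.73 on CD34+ arrays and 11.48 lowest, 11.67 median and 11.93 highest on CD34- arrays, a difference of -0.40 (SE 0.15). Only CD34+ array 5 reached the range of the CD34- arrays, and without it the difference was -0.51 (limma adjusted p = 0.0205). That array was singled out by its value, so this fit is no test of the gene. With equal medians Rnf2 was also called lower (-0.88, limma adjusted p = 0.00287), as were 47.7% of all tested genes. Another probe set of Rnf2 differed by -0.07 (SE 0.14, limma adjusted p = 0.755) with all arrays. Ring1, the other ligase, differed by 0.13 (SE 0.23). Bmi1, the PRC1 subunit best known for silencing the Ink4 locus, had 11.61, 11.21, 11.47, 11.76 and 12.04 on CD34+ arrays and 11.30 to 11.63 on CD34- arrays, a difference of 0.19 (SE 0.14). The Cbx proteins that read the PRC2 mark differed by -0.09 (Cbx7), -0.06 (Cbx2), 0.04 (Cbx8) and 0.57 (Cbx6, SE 0.36), none of them called.

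Of the proteins of heterochromatin, Ehmt2 (chr17:34898463-34914073) was lower in CD34+ arrays. It encodes G9a, a methyltransferase that places a repressive mark on histone H3 in silent euchromatin. Ehmt2 had 9.73, 9.35, 10.26, 9.55 and 9.96 on CD34+ arrays 1 to 5, and 10.43 lowest, 10.64 median and 10.81 highest on CD34- arrays. The groups did not overlap, with CD34+ array 2 the lowest. The difference was -0.85 (SE 0.16, limma adjusted p = 0.0026), 1.8-fold lower, and -0.97 to -0.74 over leaving out each array. With the actin covariate it was -0.75 (SE 0.25, limma adjusted p = 0.2) and not called. A second probe set of Ehmt2, with a mean log2 signal of 3.21, was too dim to test, and the mean of both gave 0.18 (limma adjusted p = 0.741). The methyltransferase Setdb1 and the HP1 genes Cbx1 and Cbx5, whose products bind methylated histone H3, differed by -0.15 to 0.16 and were not called. Cbx3 was too dim to test in its only probe set with 1 symbol, at 2.90 to 7.19 on CD34+ arrays and 3.79 to 6.86 on CD34- arrays.

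Among the histone demethylases, Kdm6a (chrX:18160862-18279936) was lower in CD34+ arrays. Its product UTX removes the PRC2 mark. Kdm6a had 9.65, 10.25, 10.47, 10.44 and 10.39 on CD34+ arrays 1 to 5, and 10.62 lowest, 10.71 median and 11.40 highest on CD34- arrays. The groups did not overlap, and the farthest values were CD34+ array 1 below and CD34- array 6 above. The difference was -0.62 (SE 0.18, limma adjusted p = 0.0243), and -0.31 (SE 0.27, limma adjusted p = 0.672) with the actin covariate. The call was lost when CD34- array 2 (-0.59, limma adjusted p = 0.0507) or CD34- array 6 (-0.51, limma adjusted p = 0.0516) was left out. The 2 other probe sets of Kdm6a that passed the filter differed by -0.49 (SE 0.18, limma adjusted p = 0.0654) and -0.68 (SE 0.28, limma adjusted p = 0.0991). Kdm6b, a related enzyme for the same mark, had 10.52, 10.44, 12.36, 11.62 and 11.44 on CD34+ arrays and 11.47 lowest, 11.78 median and 12.19 highest on CD34- arrays. CD34+ array 3 was the highest of all and arrays 1 and 2 the lowest, so the difference of -0.53 (SE 0.29, limma adjusted p = 0.186) was called only without array 3 (-0.81, limma adjusted p = 0.0272) and with equal medians. Leaving out the array that disagrees is no test of Kdm6b. Another of its probe sets differed by -0.22 (SE 0.19, limma adjusted p = 0.428) with all arrays. Kdm1a, which demethylates histone H3 as part of the CoREST complex, differed by -0.08 (SE 0.14), and Kdm5b, an enzyme for a mark of active promoters, by -0.44 (SE 0.24).

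Of 8 tested histone deacetylases and sirtuins, 0 were called in their brightest probe set, where 24.7% of all genes were called, and limma gave 0 at an unadjusted p under 0.05 as well. A dimmer set of Hdac2 was lower in CD34+ arrays (-0.87, SE 0.13, limma adjusted p = 0.000748). In their brightest sets, Hdac1, Hdac2 and Hdac3, the catalytic subunits of the main co-repressor complexes, differed by 0.15 (SE 0.13), -0.17 (SE 0.14) and 0.09 (SE 0.13). Hdac4, Hdac5 and Hdac7, which shuttle between nucleus and cytoplasm, differed by 0.12 (SE 0.22), -0.50 (SE 0.34) and -0.25 (SE 0.27). The deacetylases Sirt1 and Sirt2 differed by 0.02 (SE 0.19) and 0.22 (SE 0.31). Sirt2 was at 11.63 on CD34+ array 1, above all other arrays of both groups, which lay at 9.57 to 10.09 for CD34+ and 9.47 to 10.14 for CD34-.

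Of the ATP-dependent remodellers, Smarca2 (chr19:26605073-26778321) was lower in CD34+ arrays. Smarca2 and Smarca4 encode the alternative ATPases of the SWI/SNF complexes. Smarca2 had 10.22, 9.53, 10.05, 10.47 and 10.36 on CD34+ arrays 1 to 5, and 10.46 lowest, 10.62 median and 10.79 highest on CD34- arrays. CD34+ array 4 lay just inside the CD34- range and array 2 was far below it. The difference was -0.50 (SE 0.16, limma adjusted p = 0.0346), and -0.35 without CD34+ array 2. It was -0.22 (SE 0.23, limma adjusted p = 0.741) with the actin covariate and -0.40 with the Gapdh covariate (limma adjusted p = 0.0778). The call was lost without CD34+ array 2 or 3 and without CD34- array 1, 3, 4, 5 or 6, with adjusted p of up to 0.0724. Its other probe set differed by 0.62 (SE 0.35, limma adjusted p = 0.216), in the opposite direction. Smarca4 had 11.06, 11.20, 11.46, 10.84 and 11.02 on CD34+ arrays and 11.23 lowest, 11.44 median and 11.49 highest on CD34- arrays. It differed by -0.27 (SE 0.12, limma adjusted p = 0.12), and by -0.36 (limma adjusted p = 0.0382) without CD34+ array 3, the only one that reached the CD34- range. As array 3 was singled out by its value, the second fit is no test of the gene. With all arrays Smarca4 was called lower with array quality weights (-0.36, limma adjusted p = 0.0306). It was also called lower with equal medians (-0.75, limma adjusted p = 0.0017), as were 47.7% of all tested genes. Another probe set of Smarca4 differed by 0.06 (SE 0.25, limma adjusted p = 0.875) with all arrays. Chd4, the ATPase of the NuRD complex, differed by -0.11 (SE 0.20).

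The members had 106 probe sets, and 32 genes had more than 1. Beside the brightest sets, 42 sets passed the brightness filter, of which limma called 1 higher and 6 lower in CD34+ arrays; among 9076 such sets of all genes 18.9% were called, 10.1% higher and 8.83% lower. The 6 lower sets belong to Hdac2, Dnmt1, Dnmt3a, Jarid2, Kdm1a and Suz12, none of which was called in its brightest set. The set called higher belongs to Setdb1 (1.40, SE 0.32, limma adjusted p = 0.00839). It had 6.52 to 7.85 on CD34+ arrays and 5.40 to 6.43 on CD34- arrays, so it passed the filter, at a mean log2 signal of 6.06 for single sets, through the CD34+ arrays alone. Of 25 members with more than 1 set that passed, 13 had sets on both sides of 0.

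A second set of Hdac2 had 9.88, 9.70, 9.95, 9.98 and 10.19 on CD34+ arrays 1 to 5, and 10.59 lowest, 10.88 median and 11.03 highest on CD34- arrays. The groups did not overlap, with a difference of -0.87 (SE 0.13, limma adjusted p = 0.000748), whereas the brightest Hdac2 set overlapped at 11.28 to 11.91 on CD34+ arrays and 11.40 to 11.92 on CD34- arrays. For Dnmt1, a set other than the brightest had 9.25, 9.88, 10.32, 10.14 and 10.14 on CD34+ arrays, and 10.55 lowest, 10.74 median and 11.06 highest on CD34- arrays. These values did not overlap, and the difference was -0.80 (SE 0.18, limma adjusted p = 0.00834), opposite in sign to the 0.26 of the brightest set. The set of Jarid2 differed by -0.99 (SE 0.31, adjusted p = 0.038), that of Suz12 by -0.77 (SE 0.24, adjusted p = 0.0368), that of Kdm1a by -0.74 (SE 0.24, adjusted p = 0.0393) and that of Dnmt3a by -0.55 (SE 0.16, adjusted p = 0.0295), all from limma. Where the probes of these sets lie in the transcripts was not analysed here, and the actin ratio differed between the groups, so their part in the disagreement was not tested.

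**Figure D4:**
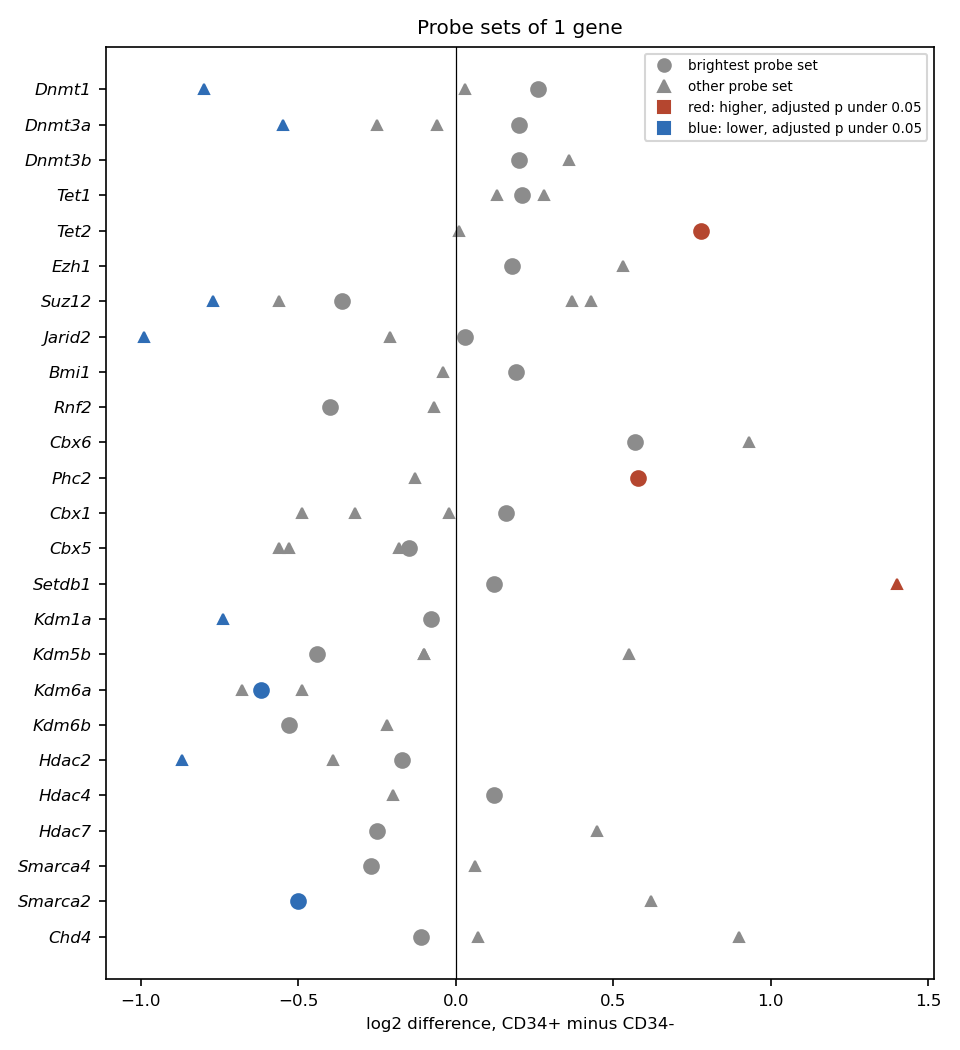
Log2 difference (CD34+ minus CD34-, horizontal axis) of every probe set that passed the brightness filter for the 25 members with more than 1 such set; circles are the brightest set of a gene and triangles its other sets, and colours mark sets called higher (red), called lower (blue) or not called (grey). Sets of 13 genes lie on both sides of 0, Dnmt1, Jarid2 and Smarca2 among them.

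Other chromatin genes of the same systems were counted beside the members. Of 109 tested, 8 were higher and 13 lower in CD34+ arrays (19.3%), with a median difference of -0.03. Over all tested genes 24.7% were called, 12.4% higher and 12.3% lower, and the same shares stand beside each list below. Among 17 other Polycomb genes, Phf19 (0.88, SE 0.19, limma adjusted p = 0.00508) and Phf1 (0.78, SE 0.27, limma adjusted p = 0.0497), Polycomb-like partners of PRC2, and Rbbp4 (0.41, SE 0.11), a histone chaperone in PRC2 and other complexes, were higher. Pcgf5, a subunit of a variant PRC1, was lower (-0.90, SE 0.25). The demethylases Kdm7a (-1.37, SE 0.40) and Kdm4a (-0.85, SE 0.27) were lower among 16 tested, and none was higher. Of 14 other deacetylase and co-repressor genes, Sin3a (-0.53, SE 0.12), Sin3b (-0.50, SE 0.16) and Rcor1 (-0.43, SE 0.14), scaffolds of deacetylase complexes, were lower and Sirt6 was higher (1.09, SE 0.34). The mean of Sirt6 on CD34- arrays was 6.51, below the filter of 6.59, so Sirt6 passed it through the CD34+ arrays and its call is not reliable. The acetyltransferases Hat1 (-0.45, SE 0.12) and Kat7 (-0.52, SE 0.16) were lower among 10. Among 22 other remodellers 3 were higher, with Smarca1, an ISWI ATPase, at 2.82 (SE 0.60, limma adjusted p = 0.00496), and 4 were lower. Smarca1 had 6.12 to 9.44 on CD34+ arrays and 3.40 to 6.08 on CD34- arrays, each CD34- value being dim, so it passed the filter through the CD34+ arrays and the size of its difference is not reliable. Of the lower ones, Smarce1 of the SWI/SNF complexes differed by -1.41 (SE 0.21) and Hells, a remodeller needed for DNA methylation, by -1.15 (SE 0.26). Kmt2c was higher (0.66, SE 0.16) among 11 genes of the complexes that methylate active promoters and enhancers, Idh2 was lower (-0.53, SE 0.16) among 7 other genes of DNA methylation, and none of 12 other methyltransferase genes was called. At an unadjusted p under 0.05, limma had 0 of those 12 higher and 2 lower, against 39.3% of all genes in either direction.

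Cell cycle inhibitors and DNA replication genes were set beside the members. Of the Ink4 and Cip inhibitors, classic Polycomb targets among them, Cdkn2a and Cdkn1c were too dim to test, Cdkn2b differed by 0.03, and Cdkn2c (-0.80, SE 0.22, limma adjusted p = 0.0177) and Cdkn1a (-0.75, SE 0.20, limma adjusted p = 0.0163) were lower in CD34+ arrays. Of 21 tested DNA replication genes, 9 were lower (42.9%, against 12.3% of all tested genes) and none was higher. Their median difference was -0.54, and limma gave 0 higher and 12 lower at an unadjusted p under 0.05. The groups overlapped when the median of 22 replication genes was set against the CD34- mean. CD34+ array 1, which had the highest actin ratio, stood lowest at -1.06. CD34+ arrays 2 to 5 followed at -0.18, -0.46, -0.41 and -0.40. CD34- arrays 1 and 2 stood at -0.27 and -0.26, and the other CD34- arrays at 0.08 to 0.20. The sliding clamp Pcna differed by -1.09 (SE 0.19, limma adjusted p = 0.00172), the ribonucleotide reductase subunit Rrm1 by -0.86 (SE 0.16) and the helicase subunit Mcm5 by -0.83 (SE 0.19). Uhrf1 and Ezh2 are known as genes of dividing cells in mouse and human, and their lower signal in CD34+ arrays stood beside these lower replication genes. Whether the share of cycling cells had a part in it was not tested.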

How the data were processed

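Total RNA of 5 CD34+ and 6 CD34- samples was labelled with biotin and hybridised to single-channel Affymetrix arrays. The authors deposited log2 values, and the submitters' processing notes name MAS5 as the tool without a version. After conversion to linear signal, the mean trimmed by 2% at each end was 500.002 to 500.004 on every array, and the values were used without further normalization. Of 45101 probe sets, 34945 had 1 symbol, 932 had several and 9160 had none beside 64 controls; 34741 were matched to RefSeq names of GRCm38.p6. Groups were compared with limma 3.58.1 in R 4.3.3 (linear model, empirical Bayes with trend, prior degrees of freedom 5.5), with Benjamini-Hochberg adjustment over 10916 genes, whose mean signal was 6.59 (log2) or more. The median SE was 0.187, and the number of arrays limits the precision. Other probe sets were fitted in the same model one by one and adjusted over all that passed a filter of the dimmest 40% of sets (mean log2 signal 6.06). Pair ratios were tested by exact permutation. In data simulated for this comparison on 10916 genes, limma called 14, 39, 47 and 50 of 50 genes changed 1.5-fold, 2-fold, 4-fold and 8-fold, with 6 false calls. The simulation changed a far smaller share of genes than the 24.7% called here. Its noise was independent between genes, and it held no difference in RNA length between the groups. Its recovery and false calls therefore do not carry over to these arrays. No 2 arrays were identical. The members and lists were chosen with earlier results of these data known. All members are accounted for, and from each other list at most 3 called genes per direction with the smallest p are named, apart from marker genes. Alternatives changed the normalization, filter, offset, probe set rule, moderation, weights, test, threshold, block, covariate and arrays used; the Gapdh covariate was added after seeing the data.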

Additional observations from a re-analysis of the deposited data

Results flagged for a closer look

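In groups of 5 or 6 arrays, a value was singled out when its gap to the nearest other array was large against the range of the group (Dixon's criterion). Of 84 groups of 42 genes, 7 held such a value, in 6 genes; chance alone gives about 1 in 20 groups. CD34+ array 1 held 5 of the 7. It was low for Dnmt3b (8.02, other CD34+ arrays 8.70 to 8.92), Ezh1 (10.72, others 11.22 to 11.41), Jarid2 (10.92, others 12.13 to 12.61) and Kdm6a (9.65, others 10.25 to 10.47), and high for Sirt2 (11.63, others 9.57 to 10.09). This array also had the highest actin ratio, 5.25. Without it Jarid2 was called higher (0.34, limma adjusted p = 0.0455), Kdm6a was called lower (-0.47, limma adjusted p = 0.0378), and Dnmt3b (0.37, limma adjusted p = 0.0706), Ezh1 (0.30, limma adjusted p = 0.0656) and Sirt2 (-0.16, limma adjusted p = 0.477) were not called. The array was singled out by these same values, so these fits are no test of the genes. Other probe sets of Jarid2 differed by -0.21 and -0.99 with all arrays. The other 2 values belong to Phc1, which lay below the brightness filter for genes. CD34+ array 2 was high (7.50, others 6.72 to 6.90) and CD34- array 4 low (4.08, others 5.54 to 6.20). The mean difference of Phc1 was 1.15 without the first of these arrays and 0.98 without the other.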

How the results depend on the processing

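Of 187 values of the 7 called members under other settings, 145 kept direction and call, 38 kept direction and lost the call, and 4 turned direction. Uhrf1, Ezh2, Ehmt2 and Tet2 were called in every fit with 1 array left out. Of 947 values of the uncalled members, 24 were called in the same direction, 4 were called in the opposite direction and 92 had the other sign without a call. All genes called numbered 2697 and became 5608 with equal medians, 1756 with the mean of probe sets, 1004 at an adjusted p under 0.01, 126 with the actin covariate and 1796 without CD34+ arrays 1 and 2. They were 1879 to 2778 over fits with 1 array left out. Members higher in CD34+ arrays became 0 with equal medians, 1 at an adjusted p under 0.01, 0 with the actin covariate, 1 with the Gapdh covariate (added after seeing the data) and 1 without CD34+ arrays 1 and 2, and were 1 to 3 over fits with 1 array left out. Members lower became 19 with equal medians, 3 with the mean of probe sets, 2 at an adjusted p under 0.01, 0 with the actin covariate and 3 without CD34+ arrays 1 and 2, and were 3 to 6 over fits with 1 array left out. With equal medians 7.06% of all called genes were higher, against 50.1% as deposited; with the mean of probe sets the share was 55.4%, with the dimmest 60% left out 38.5% and with the actin covariate 76.2%. Directions turned for Dnmt1 (-0.80), Dnmt3a (-0.55), Jarid2 (-0.99), Phc2 (-0.13) and Smarca2 (0.62) in another probe set, for Ehmt2 (0.18) and Smarca2 (0.06) in the mean of probe sets, and for Hdac3 (-0.39) with equal medians; the cause was not tested. With the replicate number as a block, 2041 genes, 2 higher members and 3 lower members were called, and Kdm6a and Smarca2 lost their calls. The titles share numbers between the groups, but deviations of same-numbered arrays correlated at 0.162, 0.02, 0.192, 0.129 and 0.038, so the numbers were not taken to pair the arrays. The pair ratios, run with the mean of probe sets and with each array left out, could not call a single pair in any of these fits. Without detection calls, dim signals such as those of Phc1, Cbx3 and Hdac9 give no reliable size.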
